A study of Mus musculus with 6 samples.

Results

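Expression of 31 genes for lysosomal proteases, other hydrolases, membrane proteins, proton pump subunits and regulators was examined in mouse corneal neutrophils. The genes were taken from a named list and matched by symbol to the GENCODE M21 annotation, and make up 31 of the 54838 genes in the count tables. Neutrophils had been isolated by fluorescence-activated cell sorting from corneas infected with PAO1, a laboratory strain of Pseudomonas aeruginosa, and were collected 24 h after infection. There were 3 libraries from wild-type mice and 3 from Il1a-/- mice, which lack the inflammatory cytokine IL-1 alpha, each labelled as a biological replicate. All 6 libraries came from infected eyes, so both genotypes share the infection and no uninfected group enters the comparison. The labels give no age, sex, strain background or number of animals per library, and name no animals, so each p-value describes the spread among these libraries. The comparison asks how absence of IL-1 alpha affects the lysosomal transcripts of neutrophils in the infected cornea.

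Lysosomes are acidic compartments in which cathepsins and other hydrolases degrade ingested microbes, cell debris and worn-out organelles. Their lumen is acidified by the vacuolar proton pump and enclosed by heavily glycosylated membrane proteins such as LAMP1 and LAMP2. In neutrophils, many of the same hydrolases reside in azurophil granules, which form early in bone marrow development, so that the transcript level in a mature cell need not follow its protein store. TFEB, a basic helix-loop-helix transcription factor held in the cytosol by active mTORC1, drives many lysosomal genes through a promoter element (the CLEAR element) built on the E-box core CACGTG.

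Sequencing depth was 25721159, 31768433 and 33626008 counts for wild-type replicates 1 to 3, and 30229879, 32295293 and 22855676 counts for the knockouts. Values are listed below in this replicate order. Il1a, on chromosome 2, was at 6696 ± 1881 CPM with the gene intact and fell to 4.47 ± 1.37 CPM in its absence (SD, n = 3 each, log2 fold change -10.55, edgeR adjusted p 5.32e-07; CPM are counts scaled to a normalized library size). All 6 libraries matched their labels by this measure. Knockout replicate 2 stood apart from the other libraries on the first principal component, which took 32.7% of the variance, at 35.5 against -20.5 to 9.64. The neutrophil alarmin genes S100a9 and S100a8 and the histidine decarboxylase gene Hdc led the neutrophil markers in level, with S100a9 between 12571 and 15660 CPM. Of 13 neutrophil markers tested, 3 had a positive and 10 a negative log2 fold change (knockout over wild type throughout), with a median of -0.09. No marker passed the adjusted threshold in the main edgeR fit. With knockout replicate 1 left out, edgeR called Mmp8 (log2 fold change -0.978, adjusted p 0.0307), where 0.19% of tested genes were called.

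The promoters of the members were inspected first, because the E-box core is the one sequence feature that is known to link many of these genes. RefSeq promoter windows (build GRCm38.p6, 250 bases before to 50 bases after each annotated start) were found for 26 of the 31 genes, and none is shown for Asah1, Atp6v1b2, Ctsb, Ctsh and Npc1. The core CACGTG reads the same on both strands, and its 8-base form TCACGTGA contains it. The core occurred in 10 of the 26 genes (38.5%). It was present in 22.3% of the other lysosomal, autophagy and protease-inhibitor genes with a window, in 11.9% of the tested genes with one, and in 8.09% of all 27025 genes in the promoter table. The 8-base form was in 5 of the 26 genes (19.2%). Its share was 9.82% in the other lysosomal, autophagy and protease-inhibitor genes, 2.41% in the tested genes and 1.13% in all genes in the table. Of all windows of this length, 7.15% held the core and 0.974% the 8-base form. These shares describe letters in a window and were not tested, and a match is not evidence that a factor binds there.

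The 150 bases before the start are printed for 6 genes, 5' to 3', in lower case with the core in capitals. Lamp1 (chr8:13159011-13159160, plus strand) is shown for its 4 copies of the core, Mcoln1 (chr8:3500369-3500518, plus strand) for its pair, and Ctsd (chr7:142387828-142387977, minus strand) as the promoter of a highly expressed protease. Ctsa (chr2:164833623-164833772, plus strand) and Atp6v1a (chr16:44139260-44139409, minus strand) are shown as a peptidase and a pump subunit with the 8-base form. Lgmn (chr12:102439093-102439242, minus strand) is shown because its transcript had the smallest p among the members, as described below. Of these windows only that of Lamp1 borders the outermost start of the GENCODE M21 gene, and the other 5 belong to a start inside the gene.
Lamp1: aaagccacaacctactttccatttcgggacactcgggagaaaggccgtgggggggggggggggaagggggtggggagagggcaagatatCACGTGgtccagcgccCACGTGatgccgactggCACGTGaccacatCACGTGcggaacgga
Mcoln1: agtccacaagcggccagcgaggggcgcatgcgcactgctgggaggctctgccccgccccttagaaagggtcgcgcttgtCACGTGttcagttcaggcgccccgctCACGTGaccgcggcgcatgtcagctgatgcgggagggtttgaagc
Ctsd: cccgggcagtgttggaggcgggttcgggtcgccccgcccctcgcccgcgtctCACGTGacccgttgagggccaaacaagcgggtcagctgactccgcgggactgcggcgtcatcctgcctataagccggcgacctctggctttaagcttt
Ctsa: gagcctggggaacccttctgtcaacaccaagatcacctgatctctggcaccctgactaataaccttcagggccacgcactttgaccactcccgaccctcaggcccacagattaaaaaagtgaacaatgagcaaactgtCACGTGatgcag
Atp6v1a: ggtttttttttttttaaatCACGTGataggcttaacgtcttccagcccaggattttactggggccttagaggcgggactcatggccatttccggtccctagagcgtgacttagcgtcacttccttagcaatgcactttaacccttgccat
Lgmn: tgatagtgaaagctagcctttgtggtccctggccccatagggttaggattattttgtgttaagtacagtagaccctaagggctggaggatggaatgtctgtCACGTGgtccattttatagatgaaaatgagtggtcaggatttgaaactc

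In Lamp1 the 4 cores began 61, 45, 28 and 15 bases before the start. In Mcoln1, which encodes the lysosomal calcium channel TRPML1, they began 71 and 45 bases before it, and the nearer one had the 8-base form. Ctsd carried the 8-base form 98 bases before the start and a further core at 245 bases, outside the stretch shown. Ctsa carried the 8-base form at 12 bases before and again at 6 bases after the start. Atp6v1a and Atp6v0d1, the only pump subunits among the members with a window, each held 1 copy of the 8-base form, at 131 and at 3 bases before the start. Single cores without the 8-base form were found in Lgmn (49 bases before the start), Glb1 (48 bases), Gaa (140 bases) and Ctsl (236 bases). No core was found in the windows of the lipid-handling members Psap, Npc2, Ppt1 and Grn.

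**Figure D1:**
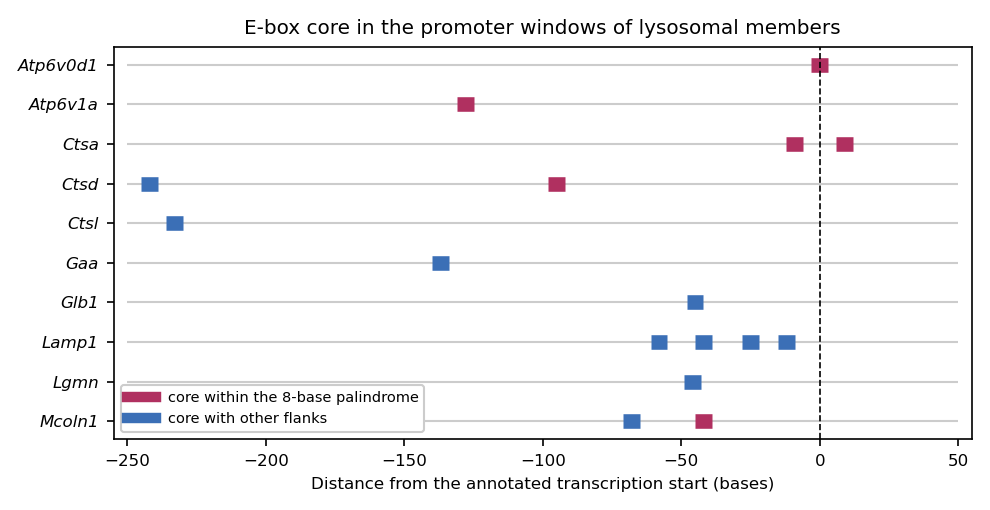
Position of the E-box core in the promoter windows of the 10 members that hold it. The x axis is the distance from the annotated transcription start in bases, each grey line is 1 window from 250 bases before to 50 bases after the start, and each block is 1 core; Lamp1 has 4 cores within 61 bases of the start.

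The members spanned a wide range of levels. Compared per kilobase of annotated exon (mean over the 6 libraries), Ctsz was the highest at 539 CPM per kb, followed by Ctsb at 352, Ctsd at 317, Cd68 at 261, Lyz2 at 238 and Psap at 170 CPM per kb. The lowest were Gusb at 1.28, Gaa at 1.24 and Glb1 at 0.0696 CPM per kb. The first 3 ranks stayed with Ctsz, Ctsb and Ctsd when the length of the main annotated transcript was used in place of all exons, a scale added after the data were seen. On that scale Lamp2 moved from 106 to 282 CPM per kb and Cd63 from 74.8 to 248 CPM per kb, so the order in the middle of the list depends on the length used. On the unscaled CPM, Ctsb alone supplied 26.9% to 28.9% of the members' counts in each library.

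**Figure D2:**
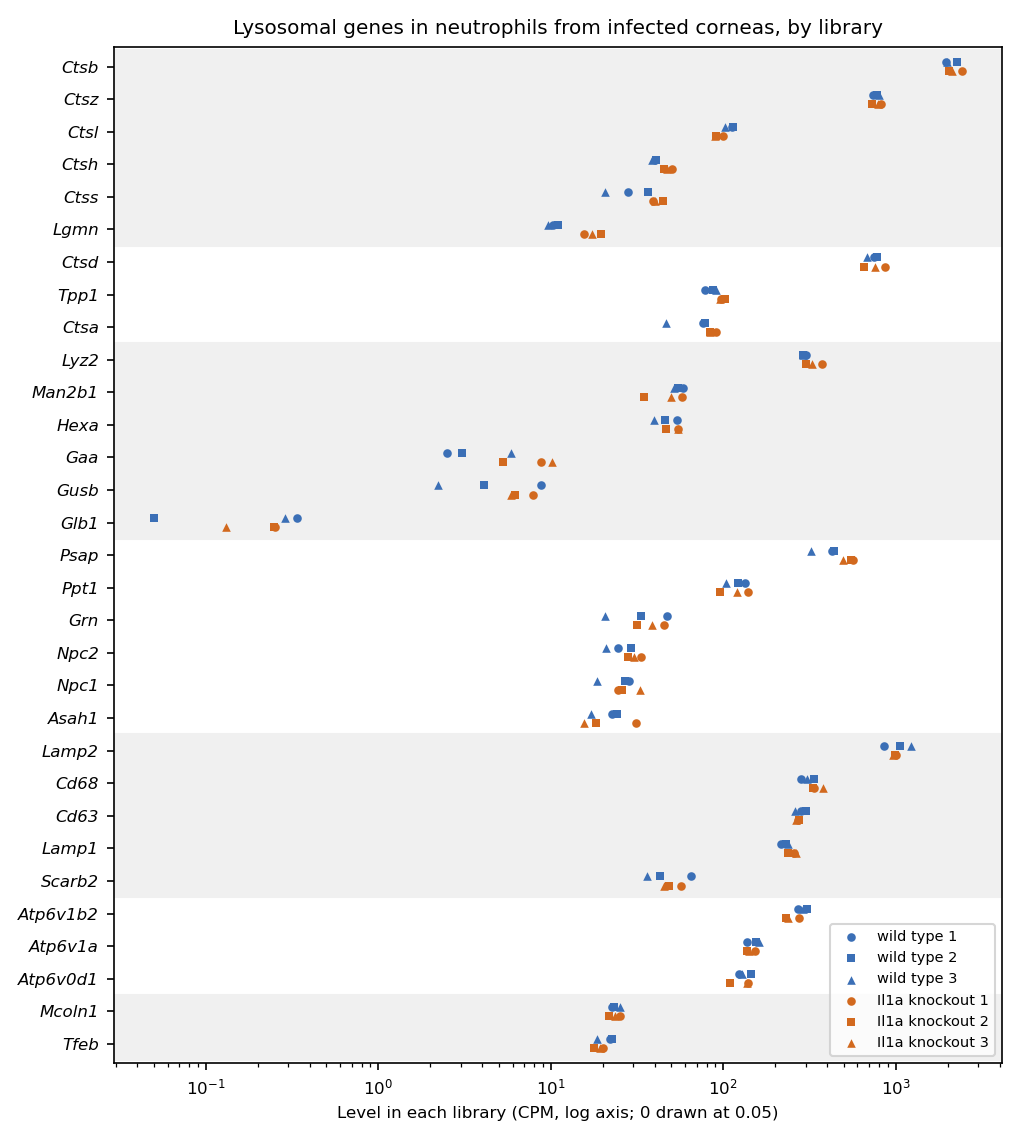
Level of each of the 31 genes in every library, in CPM on a log axis, with genes grouped by role (shaded bands) in the order cysteine cathepsins and legumain, aspartic and serine peptidases, glycosidases and lysozyme, lipid handling, membrane proteins, pump subunits and regulators. Blue marks are wild type and orange marks the Il1a knockout, with replicate 1 as circle, 2 as square and 3 as triangle; Lgmn and Psap are among the genes whose orange and blue marks do not overlap.

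No member passed the threshold for a difference between the genotypes. Of 30 members that passed the filter on low counts, 0 had an adjusted p under 0.05 in the edgeR quasi-likelihood test, the smallest being 0.26 for Lgmn, while 12 of 11924 tested genes did (0.101%). At an unadjusted p under 0.05 there were 4 members, Lgmn, Gaa, Psap and Ctss, all with positive log2 fold changes, against 5.99% of all tested genes. The log2 fold change was positive for 20 members and negative for 10, with a median of 0.11, beside a median of 0.0045 and 50.7% positive values over all tested genes. The member values ran from -0.23 (Ctsl) to 1.08 (Gaa), and the quartiles of all tested genes were -0.20 and 0.24. The remaining member, Glb1, did not pass the filter. For 27 of the 30 tested members the 95% interval of the difference stayed inside a 2-fold difference up or down; the exceptions were Gaa, Gusb and Lgmn. The genotypes did not overlap in 7 members with the knockout higher (Psap, Lyz2, Tpp1, Ctsa, Ctsh, Ctss and Lgmn) and in 1 with it lower (Ctsl). Over all tested genes 6.12% were separated upward and 5.48% downward. An exact permutation test of 3 against 3 libraries cannot give a two-sided p below 0.1, so such separation alone does not reach 0.05. In sorted bulk cells fewer cells that carry a transcript and less of it in each cell cannot be told apart.

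**Figure D3:**
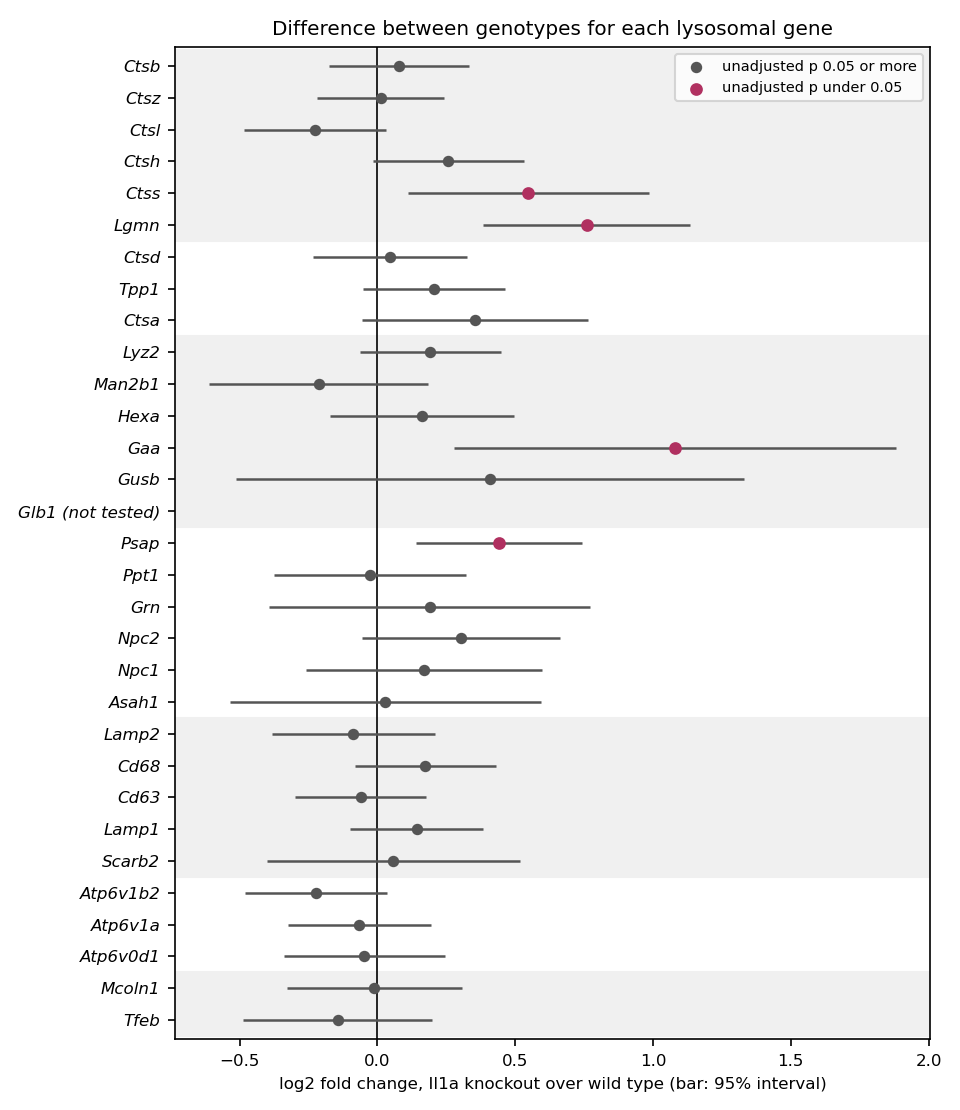
Log2 fold change of each member, Il1a knockout over wild type, with its 95% interval (horizontal bar), in the role order used for the plot of levels. The 4 members with an unadjusted p under 0.05 are drawn in red; Gaa has the highest estimate at 1.08 and a wide interval, and most other intervals cross 0.

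**Figure D4:**
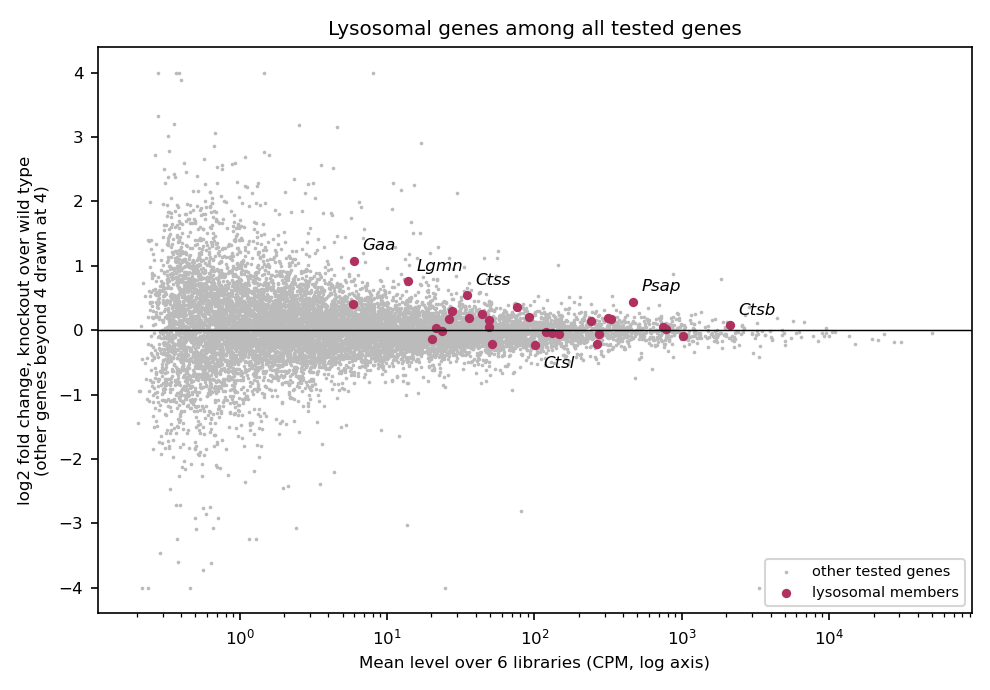
Log2 fold change against mean level in CPM (log axis) for the tested members (red) and all other tested genes (grey, values beyond 4 drawn at 4). The members lie inside the cloud of other genes at their level, with Gaa at 1.08 and Lgmn at 0.76 near its upper edge.

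Among the cysteine cathepsins and legumain, 2 of 6 genes had an unadjusted p under 0.05, beside 5.99% of all tested genes. None passed the adjusted threshold. Lgmn encodes legumain, the asparaginyl endopeptidase that cleaves cathepsins to their mature forms (ENSMUSG00000021190, chromosome 12, 102394084 to 102439813, minus strand). It was at 10.3, 11.0 and 9.62 CPM across the wild-type replicates, against 15.7, 19.5 and 17.3 CPM across the knockouts. Every knockout library lay above every wild-type library, and the ranges of both groups were narrow. The log2 fold change was 0.76 (SE 0.17, 95% interval 0.38 to 1.14, edgeR unadjusted p 0.0011, adjusted p 0.26). The level rests on 276, 341 and 299 wild-type counts and 498, 631 and 395 knockout counts. Lgmn was called at an adjusted p of 0.0382 by DESeq2, where 0.524% of tested genes were called; edgeR's adjusted p over the other settings and left-out libraries ran from 0.0584 to 0.821.

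Ctss encodes cathepsin S, an endopeptidase that stays active at neutral pH and trims the invariant chain in antigen-presenting cells (ENSMUSG00000038642, chromosome 3, 95526786 to 95556403, plus strand). Its level was 28.0, 36.4 and 20.5 CPM across the wild-type replicates, against 39.4, 44.6 and 40.1 CPM across the knockouts. The groups did not overlap, but wild-type replicate 2 came close to the lowest knockout library. The log2 fold change was 0.55 (SE 0.20, 95% interval 0.11 to 0.98, edgeR unadjusted p 0.0188, adjusted p 0.736), and it was 0.36 without wild-type replicate 3, the lowest library. Ctsl, which encodes the broadly acting endopeptidase cathepsin L, was the only member with the knockout wholly below wild type. It was at 113, 114 and 102 CPM across the wild-type replicates, against 100, 90.9 and 89.1 CPM across the knockouts. The gap between the lowest wild-type and the highest knockout library was small, and the log2 fold change of -0.23 (SE 0.12, 95% interval -0.49 to 0.03) had an edgeR adjusted p of 0.867.

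Ctsh, which encodes the aminopeptidase cathepsin H, was at 40.4, 40.9 and 38.5 CPM across the wild-type replicates, against 50.3, 45.4 and 47.5 CPM across the knockouts. The groups were separated by a few CPM, with a log2 fold change of 0.26 (95% interval -0.01 to 0.53). Cathepsins B and Z, the most highly expressed members per kb, showed overlapping groups. Ctsb, a protease with both endopeptidase and carboxypeptidase activity, was at 1958, 2278 and 1977 CPM across the wild-type replicates, against 2410, 2038 and 2119 CPM across the knockouts. Its log2 fold change was 0.08 with a 95% interval of -0.17 to 0.33. Ctsz, which encodes the carboxypeptidase cathepsin Z, varied least of all members by coefficient of variation, between 727 and 823 CPM over the 6 libraries, with a log2 fold change of 0.01 (95% interval -0.22 to 0.24). Thus 5 of the 6 genes had positive values and the median was 0.17, while the summed level of the group was 3033 ± 197 CPM for wild type and 3169 ± 243 CPM for the knockout.

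The aspartic and serine peptidases had positive values in 3 of 3 genes, none with an unadjusted p under 0.05. Ctsd, which encodes the aspartic protease cathepsin D, was at 747, 774 and 681 CPM across the wild-type replicates, against 866, 652 and 753 CPM across the knockouts, where both the highest and the lowest library were knockouts. Ctsa encodes cathepsin A, a serine carboxypeptidase that also shields the enzymes beta-galactosidase and neuraminidase from degradation. It was at 76.6, 78.1 and 46.8 CPM across the wild-type replicates, against 90.2, 84.2 and 83.2 CPM across the knockouts. Wild-type replicate 3 was far below the other 5 libraries, and the log2 fold change of 0.35 (95% interval -0.05 to 0.76) was 0.15 without it. Tpp1, which encodes tripeptidyl peptidase 1, was at 78.1, 87.2 and 90.6 CPM across the wild-type replicates, against 96.9, 102 and 95.9 CPM across the knockouts, a log2 fold change of 0.20 (95% interval -0.05 to 0.46). The knockout libraries lay close together, just above the highest wild-type library.

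The glycosidases and lysozyme included the member with the highest estimate, at a low level. Gaa encodes acid alpha-glucosidase, which releases glucose from glycogen inside lysosomes (ENSMUSG00000025579, chromosome 11, 119267887 to 119285454, plus strand). It was at 2.51, 3.06 and 5.85 CPM across the wild-type replicates, against 8.74, 5.27 and 10.2 CPM across the knockouts. Knockout replicate 2 lay below wild-type replicate 3, so the groups overlapped. The log2 fold change was 1.08 (SE 0.36, 95% interval 0.28 to 1.88, edgeR unadjusted p 0.0131, adjusted p 0.667), on 67, 95 and 182 wild-type counts and 278, 171 and 234 knockout counts. Without a filter on low counts edgeR called Gaa at an adjusted p of 0.035, a setting in which 0.766% of tested genes were called. It was not called by DESeq2, at an adjusted p of 0.263.

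Gusb, the gene for beta-glucuronidase, was at 8.72, 4.12 and 2.22 CPM across the wild-type replicates, against 7.86, 6.17 and 5.90 CPM across the knockouts. The wild-type libraries spanned a wide range that enclosed all knockout libraries, and the log2 fold change of 0.41 (95% interval -0.51 to 1.33) was the least certain of the group. It was 1.05 without wild-type replicate 1 and 0.05 without wild-type replicate 3. Hexa, which encodes the alpha subunit of beta-hexosaminidase, was at 54.0, 45.7 and 39.6 CPM across the wild-type replicates, against 54.6, 46.3 and 54.9 CPM across the knockouts, with a log2 fold change of 0.16. Man2b1, the gene for lysosomal alpha-mannosidase, was at 58.6, 54.8 and 51.8 CPM across the wild-type replicates, against 57.6, 34.8 and 50.1 CPM across the knockouts. Its negative log2 fold change of -0.21 rested mainly on knockout replicate 2 and was -0.04 without that library. Glb1, the gene for beta-galactosidase, had 9, 0 and 9 wild-type counts and 8, 8 and 3 knockout counts. That is 0.337 CPM or less in every library, too few for a test, and a count of 0 allows up to 3 counts.

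Lyz2, which encodes the lysozyme of myeloid cells that cleaves bacterial peptidoglycan, was at 301, 288 and 289 CPM across the wild-type replicates, against 373, 301 and 329 CPM across the knockouts. Knockout replicate 2 exceeded wild-type replicate 1 by less than 1 CPM, so the separation of the groups was minimal, and the log2 fold change was 0.19 (95% interval -0.06 to 0.45). The near-identical gene Lyz1, whose transcript matched that of Lyz2 at 95.8% identity over 96% of its length, was at a mean of 0.591 CPM. How reads that fit both copies were counted is not stated, and such reads may be absent from both levels. In all, 4 of the 5 tested glycosidase and lysozyme genes had positive values, with a median of 0.19.

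The lipid-handling and saposin genes showed the clearest difference in summed level, 621 ± 101 CPM in wild type against 774 ± 57.5 CPM in the knockout, most of it from Psap. Psap encodes prosaposin, the precursor of the saposins that present sphingolipids to their hydrolases (ENSMUSG00000004207, chromosome 10, 60277627 to 60302597, plus strand). It was at 426, 440 and 323 CPM across the wild-type replicates, against 566, 552 and 494 CPM across the knockouts. All knockout libraries were above all wild-type libraries, and wild-type replicate 3 was the lowest of the 6. The log2 fold change was 0.44 (SE 0.14, 95% interval 0.14 to 0.74, edgeR unadjusted p 0.0085, adjusted p 0.597). It lay between 0.31 and 0.52 as each library was left out in turn, and with at least 10049 counts in each library its error comes from the spread between libraries.

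Npc2, which encodes the soluble cholesterol carrier of the late endosome and lysosome, was at 24.6, 29.0 and 20.8 CPM across the wild-type replicates, against 33.4, 28.0 and 30.4 CPM across the knockouts, with a log2 fold change of 0.30 (95% interval -0.06 to 0.66). Its membrane partner Npc1 was at 28.6, 26.9 and 18.6 CPM across the wild-type replicates, against 24.7, 25.8 and 32.7 CPM across the knockouts, a log2 fold change of 0.17 that was -0.001 without wild-type replicate 3. Both genes had their lowest value in wild-type replicate 3 and otherwise overlapped. Grn, the gene for progranulin, which is split into granulins in lysosomes, was at 46.9, 33.5 and 20.7 CPM across the wild-type replicates, against 45.3, 31.5 and 38.4 CPM across the knockouts. Asah1, the gene for acid ceramidase, was at 22.7, 24.1 and 17.1 CPM across the wild-type replicates, against 31.2, 18.2 and 15.7 CPM across the knockouts, so that the knockout libraries spread wider than the wild-type ones. Ppt1, the gene for palmitoyl-protein thioesterase 1, was at 134, 122 and 104 CPM across the wild-type replicates, against 139, 95.8 and 119 CPM across the knockouts. The log2 fold changes of Grn, Asah1 and Ppt1 were 0.19, 0.03 and -0.03, and each changed sign when 1 of the libraries was left out.

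The lysosomal membrane proteins had a summed level of 1913 ± 187 CPM for wild type and 1906 ± 28.3 CPM for the knockout. Lamp1, a major glycoprotein of the lysosomal membrane, was at 217, 231 and 237 CPM across the wild-type replicates, against 256, 236 and 264 CPM across the knockouts, with a log2 fold change of 0.14 (95% interval -0.10 to 0.38). Knockout replicate 2 lay just inside the wild-type range. Lamp2, its relative with a further role in chaperone-mediated autophagy, was at 858, 1063 and 1221 CPM across the wild-type replicates, against 1009, 986 and 962 CPM across the knockouts. The wild-type libraries of Lamp2 enclosed the knockout ones on both sides, and the log2 fold change was -0.09 (95% interval -0.38 to 0.21). Cd63, a tetraspanin that marks azurophil granules as well as lysosomes, lay between 262 and 301 CPM in wild type and between 264 and 274 CPM in the knockout. Cd68, a LAMP-family glycoprotein much used as a macrophage marker, was at 283, 336 and 307 CPM across the wild-type replicates, against 337, 331 and 377 CPM across the knockouts, a log2 fold change of 0.17 (95% interval -0.08 to 0.43). Scarb2 encodes LIMP-2, the receptor that carries beta-glucocerebrosidase to lysosomes. It was at 65.4, 43.1 and 36.2 CPM across the wild-type replicates, against 57.0, 48.4 and 45.1 CPM across the knockouts, with overlapping groups and a log2 fold change of 0.06. In sum, 3 of the 5 genes had positive and 2 negative values, and in none of them were the groups separated. A processed pseudogene of Cd63, Cd63-ps, matched its transcript at 98.0% identity over 81% of its length and was counted at a mean of 3.89 CPM.

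The pump subunits and the regulators were the groups in which all values were negative, in 3 of 3 and 2 of 2 genes, and none had an unadjusted p under 0.05. Atp6v1b2, which encodes a nucleotide-binding subunit of the cytosolic part of the vacuolar proton pump, was at 270, 304 and 290 CPM across the wild-type replicates, against 274, 230 and 237 CPM across the knockouts. Only knockout replicate 1 reached the wild-type range, and the log2 fold change was -0.22 (95% interval -0.48 to 0.04, edgeR adjusted p 0.869). Atp6v1a, the catalytic subunit, was at 136, 154 and 161 CPM across the wild-type replicates, against 153, 137 and 141 CPM across the knockouts. Atp6v0d1, a subunit of the membrane part, was at 124, 145 and 129 CPM across the wild-type replicates, against 139, 110 and 137 CPM across the knockouts. Both overlapped between the genotypes, with log2 fold changes of -0.07 and -0.05, and the latter was 0.01 when counts were scaled by library size alone. The 3 subunits summed to 571 ± 37.6 CPM for wild type and 519 ± 44.4 CPM for the knockout.

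Tfeb itself was at 22.0, 22.7 and 18.6 CPM across the wild-type replicates, against 20.1, 17.8 and 19.3 CPM across the knockouts, with a log2 fold change of -0.14 (95% interval -0.49 to 0.20). Mcoln1 was at 22.6, 23.3 and 25.3 CPM across the wild-type replicates, against 25.3, 21.9 and 23.5 CPM across the knockouts. The Mcoln1 libraries were nearly level, with a log2 fold change of -0.01 (95% interval -0.33 to 0.31) that was 0.05 with library size alone. The transcript level of Tfeb does not show where the protein is located, and the location was not measured. The 9 tested members with an E-box core in the promoter window had a median log2 fold change of 0.04, with 5 positive. The 16 tested members whose windows lacked it had a median of 0.17, with 11 positive, and the difference was not tested.

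Summed over all 31 genes, the level was 7180, 7891 and 7345 CPM across the wild-type replicates, against 8373, 7340 and 7689 CPM across the knockouts. Knockout replicate 1 was the highest of the 6 libraries and knockout replicates 2 and 3 lay within the wild-type range. The means were 7472 ± 372 and 7801 ± 526 CPM (SD, n = 3 each), a log2 ratio of 0.06, which is smaller than the spread between replicates on the same scale (pooled SD 0.085). As a share of all gene counts the members took 0.746%, 0.772% and 0.679% across the wild-type replicates and 0.881%, 0.737% and 0.770% across the knockouts. Single libraries weighed on these values. Knockout replicate 1 held the highest value of 11 of the 30 tested members and the lowest of none, and wild-type replicate 3 the lowest of 12. Without knockout replicate 1 the median log2 fold change of the members was 0.02, with 15 positive and 15 negative. Without wild-type replicate 3 it was 0.04, with 17 positive and 13 negative.

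**Figure D5:**
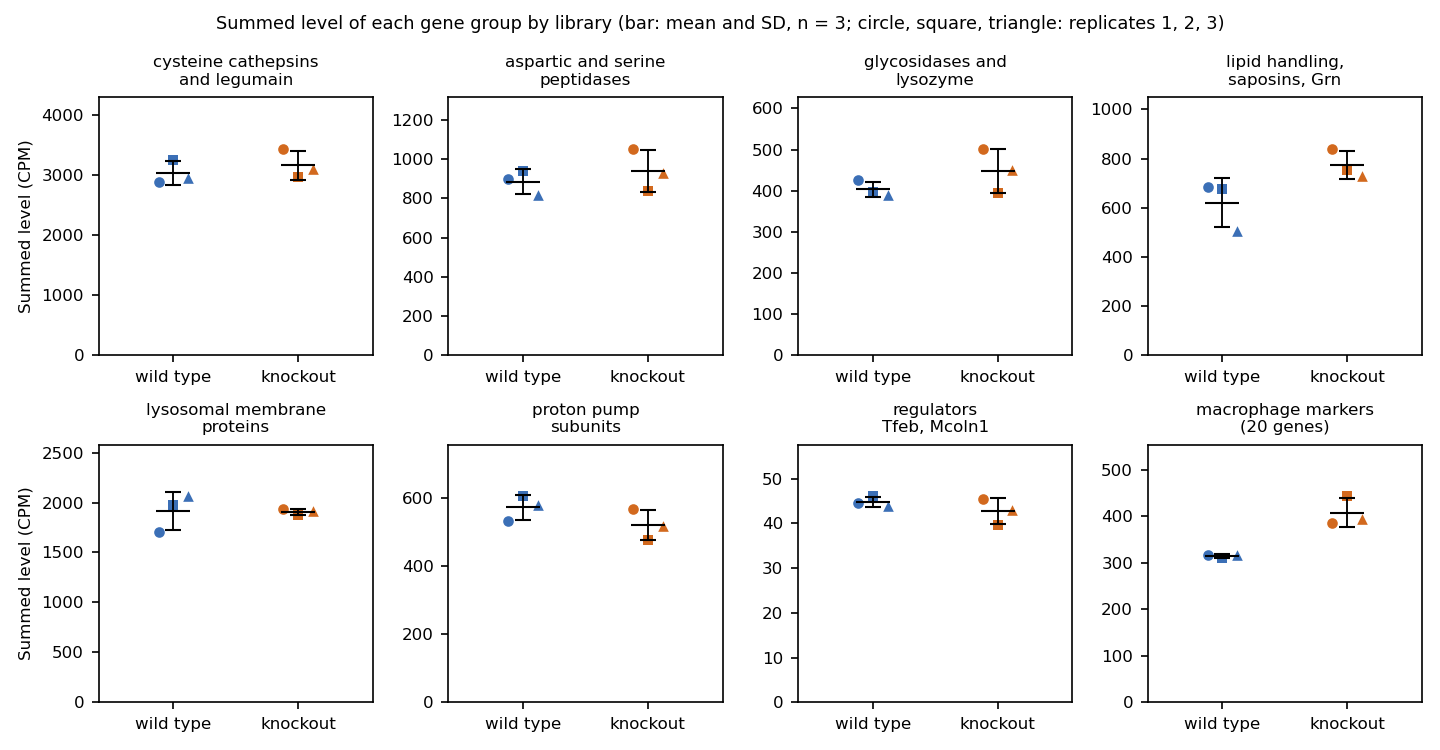
Summed level in CPM of each role group of lysosomal members and of the 20 macrophage markers, by library, on axes that start at 0. Blue is wild type and orange the Il1a knockout, circles, squares and triangles are replicates 1, 2 and 3, and the black bars give the mean and SD (n = 3); the macrophage markers (311 to 317 against 385 to 443 CPM) and the lipid-handling genes are the panels without overlap.

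The wider lysosomal pathway was described from 7 further lists with 145 matched genes, 136 of them tested. None passed the adjusted threshold in edgeR, while 3 did in DESeq2 (0.524% of all genes tested there). There were 8 with positive and 5 with negative values at an unadjusted p under 0.05 (5.99% of all tested genes in either direction), and the median log2 fold change was 0.01. The 33 tested genes of other hydrolases and activators had a median of 0.26, with 26 positive and 7 negative values. In 8 of them the knockout libraries lay wholly above wild type, and in 0 wholly below, beside 6.12% and 5.48% of all tested genes. The most abundant of them by CPM had values near or below 0. Neu1, which encodes neuraminidase 1, had a log2 fold change of 0.03, Gla, the gene for alpha-galactosidase A, of -0.17, and Hgsnat, an acetyltransferase of heparan sulphate breakdown, of 0.0043. Acp5, which encodes the tartrate-resistant acid phosphatase and was picked for mention with its values known, was at 56.6, 36.3 and 24.8 CPM across the wild-type replicates, against 70.8, 75.4 and 65.0 CPM across the knockouts. Its knockout libraries all exceeded the scattered wild-type ones, with a log2 fold change of 0.85 (edgeR adjusted p 0.568).

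The other lists were centred near 0. Other membrane and transport genes had a median of 0.03 over 22 tested genes, led in level by the tetraspanin gene Cd9 (log2 fold change -0.03), the metal transporter gene Slc11a1 (-0.02) and Laptm5 (-0.05). Other pump genes had a median of -0.05 over 15, led by Atp6v1e1 (0.06), Atp6v0c (-0.05) and Atp6ap2 (-0.16). Sorting and fusion genes had a median of -0.06 over 24, led by Rab7, the late endosomal GTPase (-0.07), the mannose 6-phosphate receptor gene M6pr (0.04) and Stx7 (-0.19). The 9 genes that led these lists in level thus had values between -0.19 and 0.06. For the TFEB family and nutrient sensing genes the median was -0.05 over 19, led by Tfe3 (-0.05), Flcn (0.23) and Fnip2 (0.22). For autophagy genes it was -0.05 over 16, led by the cargo receptor gene Sqstm1 (-0.12), Gabarap (0.05) and Map1lc3b (-0.20). For intracellular protease inhibitors it was -0.03 over 7, led by Cstb (0.15), Stfa2l1 (-0.12) and Cst3 (0.03).

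Over all tested genes 6.12% were separated with the knockout higher and 5.48% with it lower. In the 136 tested genes of these 7 lists, 15 were separated with the knockout higher and 6 with it lower. The lower ones were Cd164, Laptm4a and Ctns among the membrane and transport genes, Vps18 and Nagpa among the sorting and fusion genes, and Rptor, with log2 fold changes from -0.31 (Vps18) to -1.53 (Nagpa). Tcirg1 and Vps39 belong to the higher ones and, like Acp5, were called by DESeq2; these names too were picked with their values known. Tcirg1, which encodes a membrane subunit of the proton pump, was at 45.4, 33.3 and 25.9 CPM across the wild-type replicates, against 49.2, 64.8 and 67.0 CPM across the knockouts, a log2 fold change of 0.79 (edgeR adjusted p 0.463). Vps39, which encodes a subunit of the HOPS complex that tethers late endosomes to lysosomes, was at 7.86, 5.22 and 6.43 CPM across the wild-type replicates, against 11.4, 19.0 and 17.7 CPM across the knockouts. Knockout replicate 1 was the nearest to wild type for both genes. For Vps39 the log2 fold change was 1.30 (edgeR adjusted p 0.14). Vps39 was called by edgeR with a filter at 5 CPM (0.366% of tested genes called) and without knockout replicate 1 (0.19% called). It lies on chromosome 2 at 8.95 Mb from Il1a. The members on that chromosome, Ctsa and Ctsz, lie 35.5 and 45.1 Mb away from Il1a.

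Levels of macrophage markers are given beside these genes, and whether the levels go together was not tested. The 20 monocyte and macrophage markers summed to 317, 311 and 317 CPM across the wild-type replicates, against 385, 443 and 395 CPM across the knockouts, without overlap. Their most abundant genes, Csf1r, Adgre1 and Ly6c2, made up most of the sum and differed in direction. Csf1r was at 164 to 188 CPM among wild-type and 190 to 230 CPM among knockout libraries, with the knockout wholly higher. Adgre1 overlapped, at 58.2 to 83.4 and 72.1 to 86.4 CPM. Ly6c2 was wholly lower in the knockout, at 31.6 to 33.3 against 21.8 to 29.9 CPM (log2 fold change -0.30). The other 17 markers summed to 37.7, 35.2 and 36.2 CPM across the wild-type replicates, against 40.8, 146 and 103 CPM across the knockouts. Of 17 markers tested, none passed the adjusted threshold in the main edgeR fit. There were 10 with positive and 1 with negative values at an unadjusted p under 0.05, beside 5.99% of all tested genes. With no filter on low counts (0.766% of tested genes called), edgeR called C1qb, C1qc, Mrc1, Pf4, F13a1, Fn1 and Vcan with positive values. Lyve1 was called there with a negative value. Without knockout replicate 1 (0.19% called), edgeR called Pf4 and Fn1 with positive values. DESeq2 called C1qb, Pf4 and F13a1 with positive values and Lyve1 with a negative one, in a fit that called 0.524% of all genes. Of the 20 markers, 1, 2 and 1 had 0 counts across the wild-type replicates, against 1, 0 and 0 across the knockouts. The complement gene C1qb, picked with its values known, was at 0.973, 1.26 and 0.740 CPM across the wild-type replicates, against 2.11, 8.29 and 4.02 CPM across the knockouts. Macrophages express lysosomal genes as well, and the part of such cells in the values of the members was not tested. In knockout replicate 1 the 17 less abundant markers summed to 40.8 CPM and all 20 to 385 CPM. Both sums exceeded every wild-type library and were the lowest among the knockouts. Csf1r (230 CPM) and Adgre1 (86.4 CPM) were at their highest in knockout replicate 1. In the same library Lgmn (15.7 CPM), Psap (566 CPM), Ctss (39.4 CPM) and Lyz2 (373 CPM) lay above every wild-type library. Ctsl (100 CPM) lay below every wild-type library there, and Lamp2 (1009 CPM) and Cd63 (271 CPM) lay within the wild-type range.

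Markers of corneal cells varied among libraries, and their summed levels overlapped between the genotypes. Among single genes, the stromal markers Kera and Aldh1a1 were wholly lower in the knockout, with too few counts of Aldh1a1 for a test. Kera was at 0.386 to 1.39 CPM in wild type and 0.0943 to 0.306 CPM in the knockout (edgeR adjusted p 0.786). Of 6 tested stromal markers, 4 had positive and 2 negative values. Without a filter on low counts edgeR called Krt5 and Krt15 with negative values, in a fit that called 0.766% of tested genes. The epithelial markers summed to 19.4, 140 and 93.5 CPM across the wild-type replicates, against 25.8, 112 and 33.3 CPM across the knockouts, led by the keratin genes Krt14, Krt5 and Krt15. The stromal markers, led by Dcn, Col1a1 and Col1a2, summed to between 12.4 and 42.1 CPM over all libraries. Dendritic cell markers, led by Ccr7, Fscn1 and Clec9a, summed to 4.68, 6.66 and 5.05 CPM across the wild-type replicates, against 5.22, 9.53 and 12.1 CPM across the knockouts. Ccr7, a chemokine receptor gene of migrating dendritic cells, was at 1.24, 0.451 and 1.48 CPM across the wild-type replicates, against 1.57, 6.54 and 7.42 CPM across the knockouts. Its groups did not overlap, with a log2 fold change of 2.29 (edgeR adjusted p 0.463). Ccr7 was called by DESeq2 (adjusted p 0.00891) and by edgeR without a filter on low counts (adjusted p 5.72e-06). The list did not share this direction, as 2 of 6 tested dendritic cell markers had positive and 4 negative values (median -0.44). Zbtb46 was wholly lower in the knockout, at 0.674 to 1.09 CPM in wild type against 0 to 0.472 CPM (log2 fold change -2.26, edgeR adjusted p 0.827). The part of dendritic cells in the values of the members was not tested. Summed levels were at most 1.76 CPM for lymphocyte markers (Cd3d and Trac) and 18.2 CPM for mast cell, basophil and eosinophil markers (Kit and Siglecf). Endothelial and pericyte markers, led by Pecam1, Pdgfrb and Vwf, summed to 32.4 to 45.7 CPM, most of it from Pecam1 (28.3 to 44.4 CPM). Vwf was wholly higher in the knockout, at 0 to 0.290 CPM in wild type against 0.568 to 1.63 CPM. Its log2 fold change was 2.86 (edgeR adjusted p 0.613). The erythroid and platelet markers, led by Ppbp, summed to 3.08 to 38.9 CPM.

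The counting itself bears on some of the levels. The library kit does not mark strand, so reads of a gene and of an overlapping gene on the other strand cannot be told apart, and the unstranded counts leave out reads in overlaps. The sum of the deposited strand columns exceeded the unstranded count by a factor of 1.31 for Lamp1, which overlaps Grtp1, 1.27 for Npc1, which overlaps Rmc1, and 1.12 for Hexa, which overlaps Tmem202. The unstranded levels of these genes leave those reads out. With the strand columns the log2 fold changes were 0.15 for Lamp1, 0.15 for Npc1 and 0.15 for Hexa. Ppt1, which overlaps Cap1, and Ctsa, which overlaps Pltp, differed by factors of 1.06 and 1.06. Ctsd and Glb1 overlap the models Gm49369 and Tmppe on the same strand, where reads of the shared part can be assigned to neither gene.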

How the data were processed

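RNA from sorted neutrophils was made into libraries with the SMART-seq v4 ultra-low-input kit, per the labels' protocols. FastQC 0.11.9, Trimmomatic 0.39 and STAR 2.7.8a with the builds GRCm38 and mm10 are named, per the submitters' processing notes. No annotation release or read filter is stated there. Each deposited table holds whole-number counts per gene for 1 library, not normalized, in an unstranded column and 2 strand columns, of which the unstranded column was used. GENCODE M21 had an entry for 54809 of the 54838 genes, and all 31 members matched.

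Genes were kept by edgeR's expression filter by group (11924 genes). Counts were scaled by TMM and compared between genotypes over all kept genes by the robust quasi-likelihood test of edgeR 4.0.16 (with limma 3.58.1 in R 4.3.3), with genotype as the only term. Benjamini-Hochberg adjustment ran over all tested genes, with a threshold of 0.05. Values are CPM on the normalized library size, with SD over 3 libraries. Counts were not tagged by molecule, so limits from counts cover counting error only. The procedure was tested on simulated data. Copies were sought with blastn 2.17.0 at 90% identity over 50% of the transcript. Promoter windows and their sequences are from RefSeq (GRCm38.p6).

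The members and lists were chosen with earlier results of these data known. Of 146 other pathway entries 145 matched a gene. All members are named, and so are Il1a, near-identical copies, and the 3 tested genes with the highest mean CPM of each other list plus any past the threshold. Other names were chosen after their values were seen. Alternatives were other scalings, filters of none and of 5 CPM in 3 libraries, a replicate block, the strand columns, limma-voom, DESeq2 1.42.0, the sum without Lyz2 and leaving out each library. The per-kilobase level by main transcript was added after the data were seen.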

Additional observations from a re-analysis of the deposited data

How the results depend on the processing

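The number of all genes called was 12, and it was 185 with no filter on low counts, 21 with a filter at 5 CPM in 3 libraries, 20 with the replicate block, 70 with DESeq2, and 7 to 24 as each library was left out (7 when wild-type replicate 1 or 2 was left out, 24 when knockout replicate 1 was). The count of called members was 0, and it was 1 with no filter (Gaa, log2 fold change 1.07, edgeR adjusted p 0.035) and 1 with DESeq2 (Lgmn, 0.75, adjusted p 0.0382), and 0 in the other settings and whichever library was left out. Of the other lysosome lists 0 genes were called, against 3 with no filter and 3 with DESeq2 (Acp5, Tcirg1 and Vps39 in both), 1 at 5 CPM (Vps39), and 0 to 1 with a library left out (Vps39 without knockout replicate 1). The cause of these differences was not tested. The median log2 fold change of the members lay between 0.023 (without knockout replicate 1) and 0.15 as libraries were left out, and was 0.17 with library size alone (23 positive, 7 negative), 0.070 with no filter and 0.071 with DESeq2. Their summed log2 ratio lay between 0.00046 and 0.10 as libraries were left out, was 0.12 with library size alone and 0.06 without Lyz2.

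Across 450 recomputed member values, 25 changed sign, in 11 members whose reported values lay within 0.19 of 0. With library size alone, Ppt1 had a log2 fold change of 0.028, Atp6v0d1 of 0.012 and Mcoln1 of 0.051. Mcoln1 was at 0.0053 with the 5 CPM filter, Ppt1 at 0.0019 with the strand columns and Asah1 at -0.022 with the replicate block. As libraries were left out, values ran from -0.0022 to 0.15 for Ctsb, -0.036 to 0.051 for Ctsz, -0.070 to 0.13 for Ctsd, -0.0011 to 0.27 for Npc1, -0.34 to 0.21 for Asah1, -0.17 to 0.095 for Ppt1 and -0.066 to 0.49 for Grn. They ran from -0.23 to 0.036 for Lamp2, -0.11 to 0.32 for Scarb2, -0.11 to 0.045 for Atp6v0d1 and -0.074 to 0.035 for Mcoln1.

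Replicate numbers appear in the labels, which do not say whether they mark pairs. Between the genotypes, the deviations from the group means had correlations of 0.19, 0.0426 and 0.0399 for libraries with the same number. For libraries with different numbers the correlations ran from -0.23 to 0.177, and 3 of 6 libraries correlated best with their own number. A batch shared by number was not tested, and the main fit has no replicate term. With the replicate block 20 genes and 0 members were called, and the 20 include the macrophage marker F13a1. Depth limits Glb1 most, and Gaa and Gusb rest on 67 to 278 and 69 to 250 counts in a library.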
